A study of Vitis vinifera with 6 samples.

Results

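During the first weeks after flowering a grape berry grows by cell division around its ovules, and in a seeded variety fertilized ovules start to build seed coat, endosperm and embryo. Seedless clones keep the fruit while this seed programme is missing or stops early. The genes described here are those that were expressed in young berries of the seeded clone and lower in young berries of the seedless clone. In flowers their ratio of seedless to seeded clone had to be above a set limit, whatever the level. These genes numbered 139 of 28059 gene models.

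Messenger RNA was sequenced in *Vitis vinifera* of the seeded wine cultivar Sangiovese, called the wild-type, and of its seedless somatic variant, called the mutant. Each clone was sampled as flowers before fertilization (stage E-L 15 of the modified Eichhorn-Lorenz scale), as young berries after fertilization (E-L 27) and as ripe berries (E-L 38), which makes 6 libraries, 1 per clone and stage. According to the Methods of the study, a library held pooled RNA from repeated extractions of a single biological sample, made up of an entire inflorescence or bunch, and both clones were collected on the same dates. The sequencing data therefore hold no replicate check for any difference, and the clones could not be tested at a single stage. A difference in expression at a given stage and a difference in the pace of development cannot be told apart. The libraries held between 70331451 and 98800321 counted reads, so that 1 read was worth 0.0101 to 0.0142 RPM (counted reads scaled to a library of 1e+06 reads). Ratios compare a gene between libraries. Where genes are ranked or summed by RPM, this is by counted reads and not by transcript number, because RPM is not divided by gene length.

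The genes were chosen on measured values. The ratio of mutant to wild-type was taken after adding 0.5 RPM to both, and a gene had to reach at least 2 RPM in wild-type young berries, with a ratio of at most 0.33 at E-L 27 and above 0.5 at E-L 15. The lower level in mutant young berries is thus a description of how the genes were picked and not a finding, whereas neither ripe berry library was used. Of the 17298 genes that met the other 2 criteria, 0.815% had a ratio at or under 0.33, and 2 of these had been left out by name. The 0.5 RPM added hides differences at low flower levels: without it, 7 of the 139 had a flower ratio, or the bound of one, at or under 0.5. Among these were EXPB4 with 31 reads in wild-type and no read in mutant flowers (ratio at most 0.102) and VIT_15s0046g00710 with 22 and 3 reads (at most 0.143). Among the genes closest to the limit of 0.33, VIT_00s0187g00160 (ratio 0.329) and VIT_05s0020g03140 (0.324) fell inside, and VIT_00s0480g00030 (0.330017) and VIT_19s0014g04690 (0.331) fell outside. For the minimum of 2 RPM in wild-type young berries, VIT_15s0021g00050 with 2.07 RPM and VIT_12s0059g00440 with 2.08 RPM were inside, whereas VIT_08s0007g07780 with 1.93 RPM and VIT_04s0023g01570 with 1.89 RPM were outside. For the limit of 0.5 at E-L 15, VIT_00s0187g00160 with a ratio of 0.526 and VIT_07s0005g00830 with 0.553 were inside, and VIT_02s0025g01060 with 0.493 and VIT_06s0004g02560 with 0.413 were outside.

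The sources used here pair only 7 of the 139 identifiers with a gene name, and the remaining 132 are given by identifier, without a function. The identifiers carry the number of the chromosome in the 12x genome (VIT_05 stands for chromosome 5). Members lay on all 19 chromosomes, and 3 were unplaced. Start and end positions were not used here. For 4 of the named members the study designed real-time PCR primers, which are shown because they define the stretch of each transcript by which these genes can be followed outside the sequencing data. The study ran its real-time PCR on both biological replicates, the sequenced sample among them, and compared stages within each clone. It reported that the PCR profiles matched the sequencing and that the replicates mostly had the same profile. The PCR values themselves were not used here. Each pair is given 5′ to 3′ in lower case, forward primer first, for the pectate lyase (VIT_01s0026g01680), the FERONIA receptor-like kinase (VIT_03s0038g04340), ACE (VIT_09s0002g02210) and the beta-expansin EXPB4 (VIT_15s0021g02700).
Pectate lyase forward: caatacgagcccacattgcg
Pectate lyase reverse: ttcaggttccttctcgtgcc
FERONIA forward: tctcccatggaaggtctgtc
FERONIA reverse: aagatcatcgacccccttct
ACE forward: agagggagccacatagggtt
ACE reverse: tgcactgagccacagaagag
EXPB4 forward: agtcttggggtgccgtttgg
EXPB4 reverse: gccatcccgctggaatgaca

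The genes were far from uniform along development. In the wild-type, 84 of the 139 were highest in young berries, 24 were highest in flowers and 31 in ripe berries. In the mutant 49 were highest in young berries, 54 in flowers and 35 in ripe berries, and 1 had no read in any library. Over the 17358 genes with at least 2 RPM in wild-type young berries, 34.8% of wild-type profiles and 35.4% of mutant profiles peaked at E-L 27, and since the young berry libraries of both clones entered the choice of the members, nothing is read from the comparison with their counts. Of the 84 genes that peaked in wild-type young berries, 48 also peaked in mutant young berries, 27 in mutant flowers and 8 in mutant ripe berries, and the gene without mutant reads was among them. The 24 flower genes were all highest in flowers of the mutant too, and 27 of the 31 ripe berry genes were highest in its ripe berries. The 3 sets are described in turn below. In bulk tissue, fewer cells of a type and less RNA per cell cannot be told apart.

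**Figure D1:**
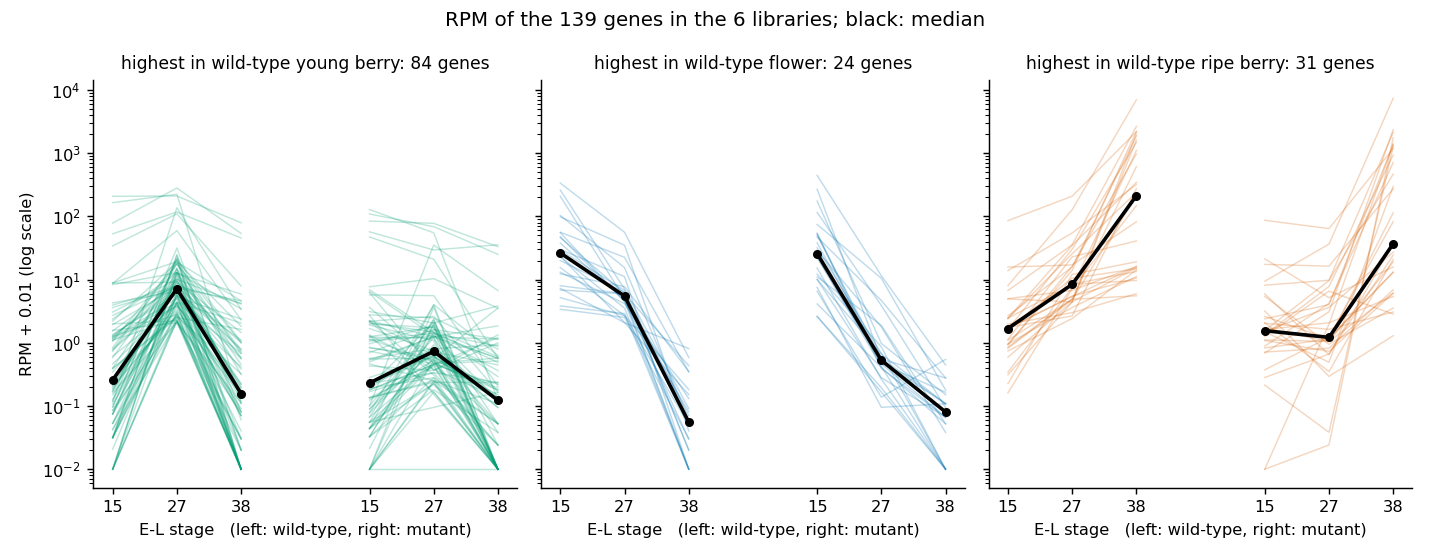
RPM (with 0.01 added, log scale) of each member along E-L 15, 27 and 38 in the wild-type (left lines of each panel) and the mutant (right lines), split by the wild-type stage at which the gene was highest; thin lines are genes and the black line is the median. The median of the 84 young berry genes went from 0.248 RPM in flowers to 7.17 RPM in young berries of the wild-type, and from 0.222 to 0.725 RPM in the mutant.

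The largest set was a burst of expression in young berries of the wild-type that was small in the mutant. Its 84 genes had a median of 0.248 RPM in wild-type flowers, 7.17 RPM in young berries and 0.147 RPM in ripe berries. In the mutant the medians were 0.222, 0.725 and 0.113 RPM. The mutant level in young berries was 10.4% of the wild-type level in the median gene, with a range from 0 to 32.7%. In the wild-type, with 0.5 RPM added, 73 of the 84 were at least 2-fold higher in young berries than in flowers. In the mutant 18 were at least 2-fold higher, 11 were at least 2-fold lower and 55 stayed within 2-fold. The 0.5 RPM added draws ratios at such low mutant levels towards 1. Without it, 54 of the 84 had more RPM in mutant young berries than in mutant flowers. The median mutant young berry level was 182% of the flower level, over the 77 genes with a read in mutant flowers. Over the 17358 genes with at least 2 RPM in wild-type young berries, 9.93% were at least 2-fold higher in young berries than in flowers of the wild-type and 5.8% at least 2-fold lower, against 8.81% and 6.35% for the mutant. All of these values entered the choice of the members, so that nothing is read from the contrast.

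Within this set, 47 genes were under 1 RPM in both flowers and ripe berries of the wild-type, so that their expression was close to restricted to the young berry. Of these, 45 were also under 1 RPM in flowers and ripe berries of the mutant. Their level in wild-type young berries ranged from 2.08 to 31.6 RPM with a median of 5.93 RPM. In mutant young berries it ranged from 0 to 4.01 RPM with a median of 0.526 RPM, and 36 of the 47 stayed under 1 RPM. In 15 of them, mutant young berries were nevertheless at least 2-fold above mutant flowers with 0.5 RPM added, so that the mutant had the same direction of change at a lower level. At this depth 14 of the 47 had no read in ripe berries of either clone, and 11 had at most 3 reads in each flower library.

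Among the restricted genes, the pectate lyase VIT_01s0026g01680 had the clearest profile of the members with a name. Pectate lyases cut the pectin of plant cell walls. This gene had 0.0216 RPM (2 reads) in wild-type flowers, 24.6 RPM in young berries and no read in ripe berries. The mutant had 0.0114 RPM (1 read), 1.92 RPM and no read. Both clones were highest in young berries, at least 758-fold above flowers in the wild-type and at least 56.3-fold in the mutant, and the mutant young berries had 7.81% of the wild-type level. The neighbouring identifier VIT_01s0026g01670 was also a member, with 0.0216, 11.7 and 0.132 RPM in the wild-type and 0.0682, 0.782 and 0.113 RPM in the mutant. Both genes were thus highest at E-L 27 in both clones, with a lower mutant peak.

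The FERONIA receptor-like kinase VIT_03s0038g04340 belongs to a family of receptors of which the *Arabidopsis* member acts in the ovule when the pollen tube arrives. It had 0.205, 6.94 and 0.0709 RPM in wild-type flowers, young berries and ripe berries, and 0.273, 0.597 and 0.169 RPM in the mutant. The young berry library of the wild-type was the only one of the 6 above 1 RPM. Young berries were 33.8-fold above flowers in the wild-type and 2.19-fold above them in the mutant. The cation/hydrogen exchanger CHX15 (VIT_10s0003g03030), of a family that moves cations against protons across membranes, had 0.0216, 6.51 and 0.374 RPM in the wild-type and 0.0568, 0.469 and 0.564 RPM in the mutant. Its mutant level in young berries was 7.21% of the wild-type level, and the mutant was slightly higher in ripe berries, with a ratio of 1.51 whose 95% counting interval (0.939 to 2.42) included 1.

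**Figure D2:**
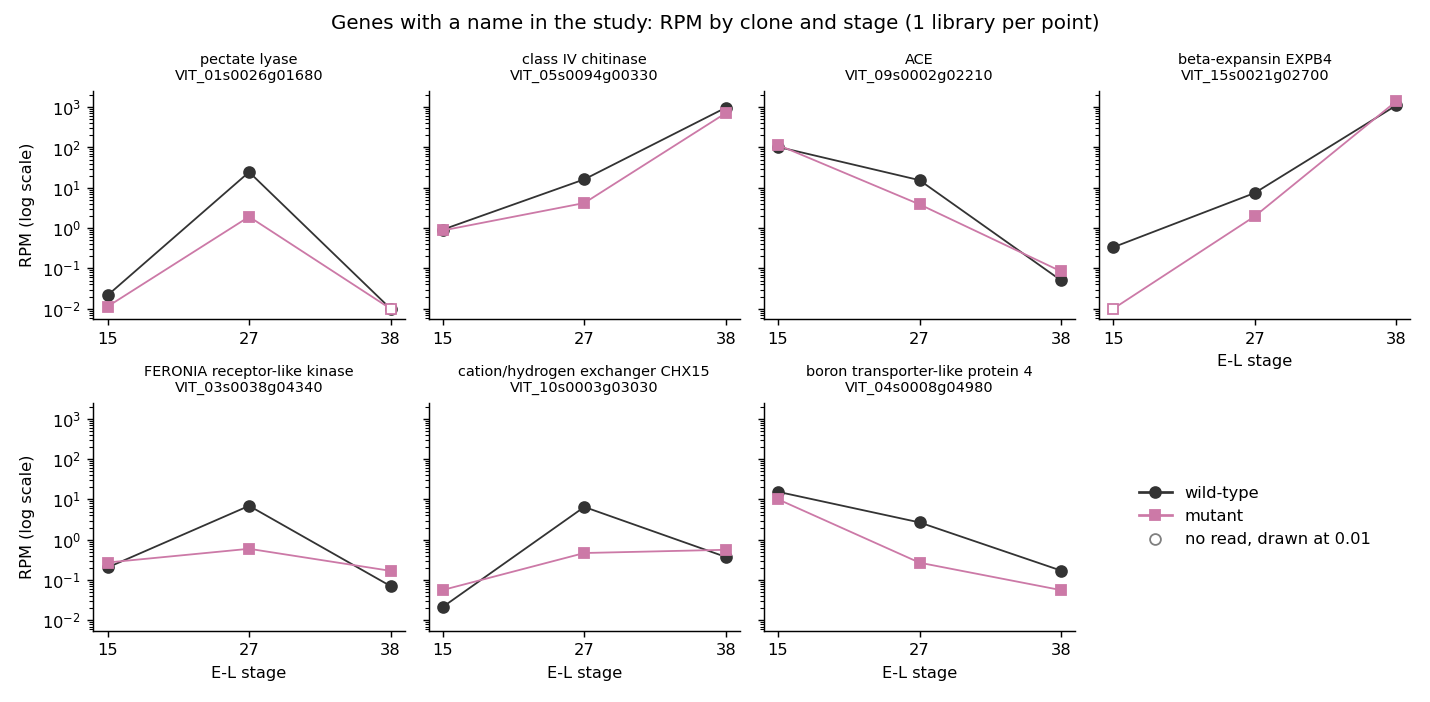
RPM (log scale) of the 7 members with a name in the study, by E-L stage; black circles are the wild-type, pink squares the mutant, each point is 1 library, and open symbols mark libraries with no read, drawn at 0.01. The wild-type point lies above the mutant point at E-L 27 in every panel, which follows from the choice of the genes, and the pectate lyase, FERONIA and CHX15 panels show a wild-type peak at that stage.

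The genes without a name included stronger signals. VIT_14s0066g01950 was near the limit of detection in flowers, at 0.108 RPM in the wild-type and 0.0909 RPM in the mutant, and reached 137 RPM in young berries of the wild-type and 35.2 RPM in the mutant. Young berries were 1268-fold above flowers in the wild-type and 387-fold above them in the mutant. In ripe berries the order of the clones was turned round, with 3.36 RPM in the wild-type and 6.69 RPM in the mutant. VIT_14s0083g00850 had 0.108, 31.6 and 0.0506 RPM in the wild-type and 0.193, 2.12 and 0.0141 RPM in the mutant. VIT_07s0005g02750 had 0.0216, 24.4 and 0.0709 RPM, against 0.0795, 1.19 and 0.0282 RPM. VIT_13s0019g00770 had 0.0648 and 15.2 RPM in flowers and young berries of the wild-type and 0.0341 and 0.924 RPM in those of the mutant, with no read in ripe berries of either clone. In these genes both clones peaked in young berries and the mutant peak was lower.

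No read was found in flowers of either clone for 5 members, all of this set, of which the 2 with the highest young berry levels are given first. VIT_18s0166g00160 had 15.1 RPM in wild-type and 3.67 RPM in mutant young berries, which is at least 465-fold and at least 108-fold above flowers. VIT_13s0064g00760 had 12.8 RPM and 2.08 RPM, at least 395-fold and at least 60.9-fold above flowers. Both went from no read to a measurable level in each clone. The other 3 had 2.22 to 2.59 RPM in wild-type young berries. Of these, VIT_02s0087g00200 had no read in any mutant library, and VIT_02s0025g04800 and VIT_12s0055g00790 had 0.156 and 0.227 RPM in mutant young berries.

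Among the lowest ratios at E-L 27 were genes that did not peak in mutant young berries. VIT_11s0016g04750 had 0.572, 14.6 and 0.759 RPM in the wild-type and 0.727, 0.455 and 0.0423 RPM in the mutant, so that mutant young berries had 3.13% of the wild-type level and were lower than mutant flowers. VIT_10s0042g00080 had 0.0648, 12.8 and 0.445 RPM in the wild-type and 0.0341, 0.441 and 1.20 RPM in the mutant, with 3.44% of the wild-type level at E-L 27 and its highest mutant level in ripe berries. VIT_03s0063g01370 had 13.1 RPM in wild-type and 0.796 RPM in mutant young berries, and was highest in ripe berries of the mutant, at 0.917 RPM. VIT_05s0020g04810 had 0.832, 17.7 and 0.992 RPM in the wild-type and 0.489, 1.24 and 1.13 RPM in the mutant, and did peak in young berries of both clones.

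Other abundant members of the set had high levels in flowers as well. VIT_18s0001g00510 had 78.3, 282 and 53.7 RPM in the wild-type and 84.2, 77.6 and 33.2 RPM in the mutant. Young berries had 3.60 times the flower level in the wild-type and 0.922 times in the mutant. VIT_02s0154g00310 had 165 and 224 RPM in flowers and young berries of the wild-type and 128 and 55.1 RPM in those of the mutant, and was close to 0.1 RPM in both ripe berry libraries (0.101 and 0.113 RPM). VIT_00s0187g00160, the member nearest to 2 of the limits, had 208, 210 and 79.3 RPM in the wild-type and 109, 68.8 and 25.1 RPM in the mutant, which was the lower clone at each of the 3 stages. VIT_04s0008g01260 had 53.0, 117 and 45.6 RPM and 57.0, 29.4 and 35.6 RPM, and VIT_04s0008g04920 had 8.69, 59.6 and 2.30 RPM and 7.69, 10.4 and 3.51 RPM.

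With 0.5 RPM added, 3 genes of the young berry set were at least 2-fold higher in young berries than in flowers in the wild-type and at least 2-fold lower in the mutant. They were VIT_03s0088g00810, VIT_10s0003g04290 and VIT_17s0000g08450. VIT_03s0088g00810 was the most abundant of them, with 34.1, 110 and 7.91 RPM in the wild-type and 47.3, 21.0 and 0.564 RPM in the mutant.

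The second set was lower in young berries than in flowers in both clones. That the difference was greater in the mutant follows from the limits on the ratios at E-L 27 and E-L 15. Its 24 genes had a median of 26.4 RPM in wild-type flowers and 25.8 RPM in mutant flowers, and the plain ratio of mutant to wild-type in flowers lay between 0.651 and 1.53. In young berries the medians were 5.48 RPM in the wild-type and 0.519 RPM in the mutant, and in ripe berries 0.0455 and 0.0705 RPM. Wild-type young berries kept 25.7% of the flower level in the median gene (range 2.41 to 86.7%), and mutant young berries kept 2.34% (range 0.20 to 17.0%). With 0.5 RPM added, 18 of the 24 were at least 2-fold lower in young berries than in flowers of the wild-type, against 24 in mutant tissue.

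ACE (VIT_09s0002g02210, adhesion of calyx edges), whose *Arabidopsis* counterpart is needed to keep floral organs from fusing, had 103, 15.4 and 0.0506 RPM in the wild-type and 116, 3.88 and 0.0846 RPM in the mutant. Young berries kept 14.9% (wild-type) and 3.36% (mutant) of the flower level. The boron transporter-like protein 4 (VIT_04s0008g04980), of a family that carries boron across membranes, had 15.5, 2.69 and 0.172 RPM in the wild-type and 10.1, 0.270 and 0.0564 RPM in the mutant. It kept 17.4% and 2.68% of the flower level. Both genes were thus highest in flowers in both clones. The boron transporter was already lower in mutant flowers, with a ratio of 0.652 (95% counting interval 0.599 to 0.709), and ACE was higher there, with a ratio of 1.12 (1.09 to 1.15).

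The highest level of the set was that of VIT_12s0142g00240, with 335, 56.1 and 0.577 RPM in the wild-type and 445, 11.5 and 0.437 RPM in the mutant. VIT_10s0003g01250 had 261 and 7.10 RPM in flowers and young berries of the wild-type and 269 and 0.540 RPM in those of the mutant. VIT_15s0021g00060 kept the most in the wild-type, 86.7% of the flower level, with 6.85 and 5.94 RPM, whereas the mutant kept 1.96%, with 6.52 and 0.128 RPM. The adjacent VIT_15s0021g00050 had 7.25 and 2.07 RPM against 7.51 and 0.0853 RPM.

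Floral organ identity genes, which mark petals and stamens and were not members, were also lower in mutant young berries. PISTILLATA (VIT_18s0001g01760) had 969, 8.11 and 0.0405 RPM in the wild-type and 854, 3.17 and 1.03 RPM in the mutant, and AP3 (VIT_18s0001g13460) had 107 and 13.8 RPM in flowers and young berries of the wild-type, with no read in ripe berries, and 84.4, 7.95 and 0.0846 RPM in the mutant. In young berries the mutant level of PISTILLATA was 39.1% of the wild-type level and that of AP3 was 57.6%. The flower set had a median of 12% and a highest value of 29.9%, which the limit of the rule keeps low. Neither of the 2 markers was at 0 in a young berry library. The part of remaining floral tissue in the lower level of this set was not tested.

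**Figure D3:**
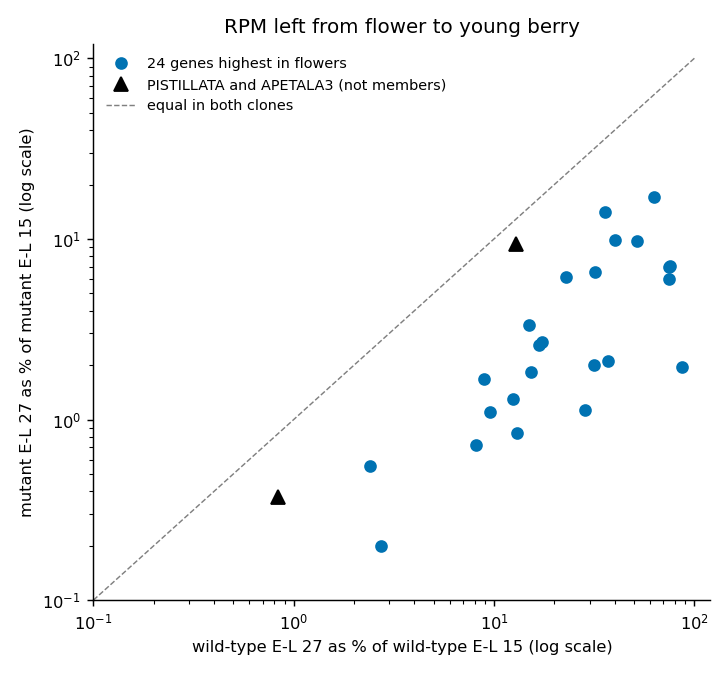
Level in young berries as a percentage of the level in flowers of the same clone (log scales), wild-type on the x axis and mutant on the y axis, for the 24 members highest in flowers (circles) and for PISTILLATA and APETALA3 (triangles, not members); the dashed line marks equal percentages. The circles lie below the line, as the choice of the genes requires of members but not of the triangles, which lie below it too.

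The third set was made of genes of the ripe berry whose early level was lower in the mutant. Its 31 genes had medians of 1.67, 8.39 and 212 RPM in flowers, young berries and ripe berries of the wild-type, and 1.55, 1.21 and 36.8 RPM in the mutant. They made up 2.55% of all counted reads in wild-type ripe berries and 2.20% in mutant ripe berries. In 26 of the 31, wild-type young berries were at least 2-fold above flowers with 0.5 RPM added, against 8 in the mutant, where 6 were at least 2-fold below flowers and 17 stayed within 2-fold. The difference between these counts again rests on values used in the choice.

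The class IV chitinase VIT_05s0094g00330, of an enzyme class that degrades chitin and is known as an abundant protein of grape berries, had 0.918, 16.2 and 970 RPM in the wild-type and 0.875, 4.19 and 712 RPM in the mutant. The adjacent VIT_05s0094g00340 was the most abundant member, with 8.04, 128 and 6965 RPM in the wild-type and 9.42, 36.4 and 7387 RPM in the mutant. EXPB4 (VIT_15s0021g02700), a beta-expansin of a family that loosens cell walls, had 0.335, 7.44 and 1103 RPM in the wild-type. The mutant had no read in flowers, 1.96 RPM in young berries and 1396 RPM in ripe berries. These genes reached similar levels in ripe berries of the 2 clones, and at E-L 27 the mutant had 25.9%, 28.6% and 26.4% of the wild-type level, in this order.

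Genes abundant in ripe berries had a lower edge in wild-type young berries. Of 177 genes with at least 500 RPM in ripe berries of both clones, none was under 0.1% of its ripe berry level in wild-type young berries, where the lowest was 0.188%. In the other early libraries 10 genes (wild-type flowers), 9 genes (mutant flowers) and 7 genes (mutant young berries) were under 0.1%, with lowest values of 0.0150%, 0 and 0.000807%. The members nearest to this lower edge were VIT_01s0011g05110, with 4.41 RPM in wild-type young berries and 2017 RPM in ripe berries (0.219%), and VIT_11s0016g04920, with 4.44 and 1612 RPM (0.276%). In mutant young berries they had 0.0142 and 0.0284 RPM. Both are among the 177 genes and among the 7 under 0.1%, and the lowest mutant value of 0.000807% is that of VIT_01s0011g05110. The rule asked for a low level in mutant young berries, so that the mutant count and minimum follow in part from the choice. When 0.2% of the wild-type ripe berry level was subtracted from wild-type young berries, 131 of the 139 genes still met the rule and the 8 lost were all in this set. When 0.2% of the mutant ripe berry level was added to mutant young berries instead, 128 remained and the 11 lost were again in this set. No member of the other sets was lost in either case. Their ripe berry levels, at most 79.3 RPM in the wild-type and 35.6 RPM in the mutant, largely fixed this in advance, so that nothing is read from it. The part of ripe berry RNA in the young berry values of this set was otherwise not tested. At the other end, VIT_14s0060g01990 had 12.1 RPM in young berries and 19.1 RPM in ripe berries of the wild-type (63.1%), against 0.654 and 24.4 RPM in the mutant (2.68%).

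**Figure D4:**
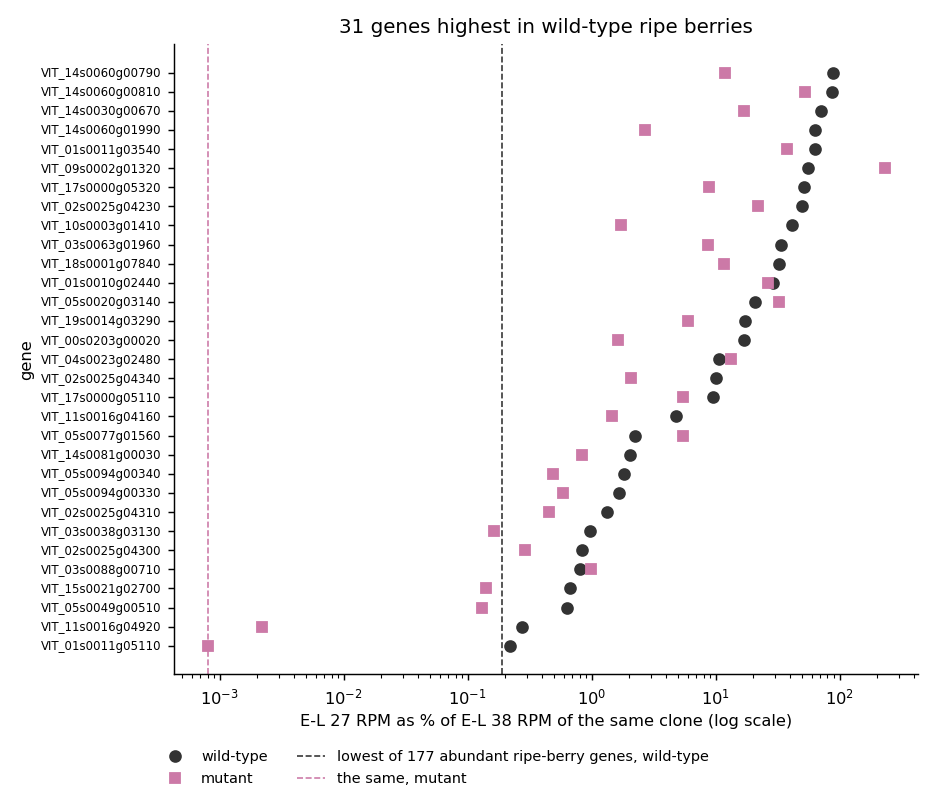
Level in young berries as a percentage of the level in ripe berries of the same clone (log scale) for the 31 members highest in wild-type ripe berries; black circles are the wild-type, pink squares the mutant, and dashed lines mark the lowest percentage among 177 genes with at least 500 RPM in ripe berries of both clones. The bottom 2 genes lie next to the wild-type line at 0.188%, and 7 of the 31 lie under 1% in the wild-type. The mutant line is set by a member, VIT_01s0011g05110, chosen for a low mutant young berry level.

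The ripe berry libraries took no part in the choice. The part of ripe berry RNA in the young berry values was otherwise not tested, so that the ripe berry values are not called independent of the choice. Of the 139 members, 50 had a mean of at least 1 RPM over both ripe berry libraries, and 89 did not. With 0.5 RPM added, 20 of the 50 were at least 2-fold lower in the mutant and 2 were at least 2-fold higher. Over all genes, 6.38% of the 16946 with this mean were lower and 1.47% were higher, and among the 15337 of them that met the other 2 criteria 4.56% were lower and 1.22% were higher. The median log2 ratio was -0.55 over the 50 members, -0.08 over all genes and -0.08 over those that met the other criteria. Without the filter, 25 of the 139 members were lower and 2 were higher, with a median of -0.0014. The filter had a part in the count over the 50, since 8 of the 50 were under 1 RPM in the mutant and passed through the wild-type level, and these 8 were all among the lower ones. Of 40 members with at least 1 RPM in both clones, 12 were lower, where 4.39% of the 16207 genes with this level were. The share lower was above the background for the 50 and for the 40 members, but neither background was matched to the members in wild-type ripe berry level. Without replicates the share describes these libraries only. No background was taken for the count without the filter. Of the 12 lower genes among the 40, 10 belonged to the ripe berry set. The whole 95% counting interval lay at or under 0.5 for 19 of the 20 lower genes.

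None of the flower set passed the filter in ripe berries. In the young berry set 19 of 84 passed, 10 of them lower and 1 higher, with a median log2 ratio of -1.01. These values rest on 8 genes that passed through the wild-type level alone, and of the 9 with at least 1 RPM in both clones 2 were lower. All 31 of the ripe berry set passed, each with at least 1.28 RPM in the mutant, and of these 10 were lower and 1 was higher, with a median of -0.45. That set had been formed on a high wild-type ripe berry level, which by itself favours lower ratios.

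Of the 11 genes of the ripe berry set with at least 500 RPM in wild-type ripe berries, 1 was among the lower genes, VIT_03s0088g00710. The other 10 also had at least 500 RPM in the mutant, with ratios of mutant to wild-type between 0.541 and 1.27. The lowest of these ratios was that of VIT_17s0000g05110, with 85.7, 209 and 2185 RPM in the wild-type and 86.7, 64.1 and 1182 RPM in the mutant. These 10 genes held 89.6% of the members' summed RPM in wild-type ripe berries. The 10 lower genes had 5.97 to 611 RPM in wild-type ripe berries. VIT_05s0077g01560 had 212 RPM in the wild-type and 19.0 RPM in the mutant, a ratio of 0.0895 (95% counting interval 0.0846 to 0.0945). VIT_04s0023g02480 had 240 RPM and 27.1 RPM, a ratio of 0.113 (0.108 to 0.118), after 25.6 RPM and 3.63 RPM in young berries. VIT_03s0088g00710 had 611 RPM and 114 RPM, a ratio of 0.187 (0.182 to 0.191). VIT_09s0002g01320 had 40.9 RPM and 2.84 RPM, a ratio of 0.0694 (0.0599 to 0.0799), and was the one gene of the set that was highest in young berries in the mutant, at 6.55 RPM. In these genes the lower mutant level at E-L 27 was followed by a lower level at E-L 38.

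In the young berry set the 10 lower genes had 1.82 to 79.3 RPM in wild-type and 0.113 to 25.1 RPM in mutant ripe berries. VIT_08s0040g00920 had 18.9 RPM in young berries and 4.62 RPM in ripe berries of the wild-type, and 2.60 and 0.155 RPM in those of the mutant, and its ripe berry ratio was 0.0336 (95% counting interval 0.0167 to 0.0607). VIT_03s0088g00810 had a ratio of 0.0713 (0.0505 to 0.0980). VIT_00s0187g00160 had a ratio of 0.316 (0.300 to 0.333), close to its ratio in young berries.

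The 2 genes that were at least 2-fold higher in mutant ripe berries were VIT_11s0016g03740 and VIT_10s0003g01410. The first had 3.94, 7.89 and 0.992 RPM in the wild-type and 3.11, 2.05 and 3.82 RPM in the mutant, with a ripe berry ratio of 3.85 (95% counting interval 3.05 to 4.91). It was just under 1 RPM in wild-type ripe berries and passed the filter through the mutant level. The second had 4.99, 6.74 and 16.2 RPM in the wild-type and 5.93, 0.640 and 36.8 RPM in the mutant, with a ratio of 2.27 (2.13 to 2.42). Next in order came VIT_14s0066g01950 with a ratio of 1.99 (1.73 to 2.30), VIT_11s0016g00520 with 2.04 RPM in the wild-type and 3.53 RPM in the mutant, and VIT_00s0203g00020 with 14.2 and 20.9 RPM. Of the named ripe berry genes, EXPB4 had a ratio of 1.27 (1.26 to 1.28) and the class IV chitinase 0.734 (0.726 to 0.742), both within 2-fold. Among the 50 members, 13 had a whole counting interval above 1. No share over all genes was taken for this criterion, so that nothing is read from the count. With many reads it is met at small differences, as by VIT_05s0094g00340 with a ratio of 1.06 (1.057 to 1.064).

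**Figure D5:**
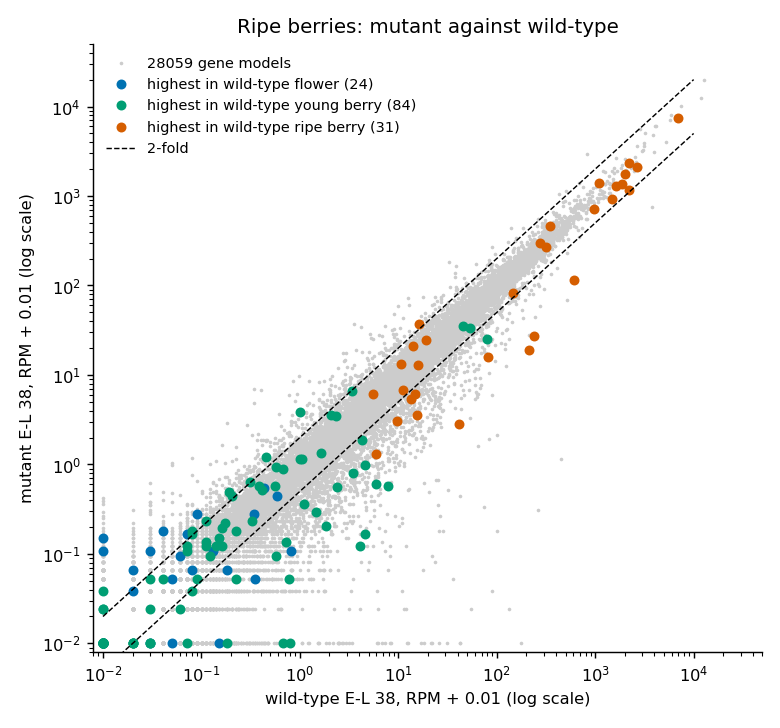
Mutant against wild-type RPM in ripe berries (0.01 added, log scales) for all gene models (grey) and for the members, coloured by the wild-type stage at which each was highest; dashed lines mark a 2-fold difference. Members at the upper right, including VIT_05s0094g00340 with 6965 and 7387 RPM, lie between the lines, and a group of ripe berry genes such as VIT_05s0077g01560 with 212 and 19.0 RPM lies below them.

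Some members stood close together in the numbering of identifiers. Runs of at least 3 members within 25 consecutive identifiers occurred 3 times, and 6 pairs of members were direct neighbours. No such count was made for other sets of genes, so that nothing is read from these numbers. Between VIT_02s0025g04230 and VIT_02s0025g04340 there were 5 members among 11 gene models, and 2 of the other 6 were at least 2-fold lower in mutant young berries with 0.5 RPM added. This run mixed profiles. VIT_02s0025g04300 and VIT_02s0025g04310 reached 1875 and 2647 RPM in wild-type ripe berries and 1372 and 2134 RPM in mutant ripe berries, and VIT_02s0025g04340 reached 345 and 467 RPM. VIT_02s0025g04230 and VIT_02s0025g04270 stayed at or under 7.35 RPM in each library and were lower in the mutant in ripe berries, with 5.97 against 1.28 RPM and 4.61 against 0.987 RPM.

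Of the 12 gene models from VIT_03s0088g00710 to VIT_03s0088g00910, 3 were members and the other 9 had a mean under 1 RPM in young berries of the 2 clones. VIT_03s0088g00910 had 1.29, 6.65 and 0.789 RPM in the wild-type and 1.24 and 1.78 RPM in flowers and young berries of the mutant, with no read in its ripe berries. The members VIT_12s0057g00320, VIT_12s0057g00330 and VIT_12s0057g00370 had 2.91, 2.22 and 9.61 RPM in wild-type young berries and 0.270, 0.142 and 0.697 RPM in mutant young berries. Only reads with a single position were counted, so that values of near-identical neighbouring copies are uncertain.

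Of the 3 genes left out by name, 2 met the rule, and the nodulin described last did not, since it was already lower in mutant flowers (ratio 0.414 with 0.5 RPM added). SEEDSTICK (VIT_18s0041g01880), a MADS-box gene of ovule identity in *Arabidopsis*, had 9.45, 67.4 and 33.2 RPM in the wild-type and 9.82, 10.7 and 26.7 RPM in the mutant. TRANSPARENT TESTA16 (VIT_01s0011g01560), which acts in the seed coat of *Arabidopsis*, had 0.194, 14.2 and 0.0709 RPM against 0.375, 2.43 and 0.0705 RPM. The nodulin VIT_17s0000g08110 of the MtN3 family, which holds sugar transporters, had 1.14, 23.1 and 0.0101 RPM in the wild-type, and 0.182 and 1.42 RPM with no read in ripe berries in the mutant. TRANSPARENT TESTA16 was under 1 RPM in flowers and ripe berries of both clones, like most of the restricted young berry genes, and SEEDSTICK kept a level in ripe berries in both clones. By contrast, 10 seed maturation genes that the study had picked on these libraries, and which are thus no independent evidence, were low in young berries of both clones (0.0775 to 5.25 RPM in the wild-type, 0 to 3.0 RPM in the mutant) and differed in ripe berries, with 17.0 to 453 RPM in the wild-type and at most 1.14 RPM in the mutant. None of the 10 was a member, and those under the minimum of 2 RPM in wild-type young berries could not be, whatever their mutant level.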

How the data were processed

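mRNA-Seq libraries of 2 clones at 3 stages, 1 per clone and stage, were compared over 28059 gene models. Read counts were made by the authors, who aligned reads with BWA to the v1 annotation of the 12x grapevine genome, used SAMtools, and summed reads with a single position per gene model (versions are not given in the sources used here). The deposited RPM values are these counts scaled by the authors to a library of 1e+06 reads, and were not divided by gene length. Recomputed RPM differed from the deposited values by less than rounding. No deposited column was left unmapped to a sample.

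Members were found with the rule stated in the results. The members, gene lists and alternatives were chosen with earlier results of these data known. With 1 library per group no test was made. Ratios carry 95% exact conditional binomial (Clopper-Pearson) intervals, which cover counting error only, since no group had a replicate library. PCR reads are not independent molecules, so that the intervals may be too narrow even for counting error. With 3 or fewer reads in 1 library 3 reads took the place of that count and the ratio is a bound, while no ratio was formed where both counts were that low. Named were the members with a name in the study, the 10 highest in wild-type young berries, the 10 lowest ratios at E-L 27, the 5 lowest and 5 highest ratios at E-L 38, members of identifier runs and genes at the limits of the rule. Other members named were chosen after their values were seen. Functional classes and promoter motifs were not analysed here, because no annotation of these identifiers was used here.

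Alternatives were TMM and RLE factors (edgeR 4.0.16, R 4.3.3), pseudocounts of 0.05 and 1 RPM, other minimum levels, equal depth by thinning each library to 70331451 reads, and the counting interval in place of the ratio. Subtracting or adding 0.2% of the ripe berry level, and leaving out the ripe berry set, were chosen after seeing the data. Python 3.11.15 (pandas 2.3.3, scipy 1.17.1, numpy 2.4.6; plots with matplotlib 3.10.9) was used, and the scripts were tested on simulated data.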

Additional observations from a re-analysis of the deposited data

Results flagged for a closer look

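Among the 50 members whose ripe berry libraries averaged 1 RPM or more, 2 were lower in mutant young berries, by the choice of the genes, and at least 2-fold higher in mutant ripe berries with 0.5 RPM added. A further 11 had a smaller excess in mutant ripe berries with a whole counting interval above 1, for which no share over all genes was taken. The ratio of mutant to wild-type at E-L 38 was 3.854 for VIT_11s0016g03740 and 2.272 for VIT_10s0003g01410. The first had 0.992 RPM in wild-type ripe berries and reached the mean of 1 RPM through the mutant level. With 1 library per clone and stage the difference between the stages was not tested.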

How the results depend on the processing

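The number of members was 139 as reported, 130 with TMM and 128 with RLE factors. With pseudocounts of 0.05 and 1 RPM it was 165 and 103. It was 140 at equal depth, 164 with no minimum and 90 with a minimum of 5 RPM. With the whole counting interval at or under 0.33 it was 142. That interval is on the plain ratio without 0.5 RPM added, so that the 142 do not compare directly with the 139. TMM factors kept 129 of the 139 and a pseudocount of 1 RPM kept 102. TMM and RLE factors raised all log2 ratios of mutant to wild-type at E-L 38 by 0.12 and 0.14, and the count lower at E-L 38 was 19 and 20, against 20, with 3 higher under both, against 2. With a fold of 3 it was 15 lower and 0 higher. Without the members highest in wild-type ripe berries it was 10 lower and 1 higher, and 8 of these 10 passed the filter through the wild-type level alone. With no filter on low levels, the median log2 ratio at E-L 38 was -0.0014 over the 139 members. None of the 72 rescaled E-L 38 ratios of named members changed direction. Each scaling multiplied all of these ratios by 1 common factor, 1.09 (TMM) or 1.10 (RLE), so that only a ratio just under 1 could have changed. The nearest was 0.806, so that the outcome was fixed in advance and nothing is read from it. No paired analysis was possible because each comparison of the clones at a stage sets 1 library against 1, and no replicate could be left out. A fit of clone and stage over the 6 libraries, with a difference common to the stages, was not run. Depth limited the members with few reads in ripe berries, for which no ratio was given.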
